A study of Mus musculus with 8 samples.

Results

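Neurexins are presynaptic membrane proteins, and neuroligins and LRRTMs are postsynaptic membrane proteins that bind them across the synaptic cleft. The expression of 9 genes of these 3 families was examined in dorsal and ventral medial entorhinal cortex (MEC): the neurexins *Nrxn2* and *Nrxn3*, the neuroligins *Nlgn1*, *Nlgn2* and *Nlgn3*, and the leucine-rich repeat transmembrane proteins *Lrrtm1*, *Lrrtm2*, *Lrrtm3* and *Lrrtm4*. The genes were chosen by family membership, are 9 of the 38553 genes in the table, and were all among the 13674 genes tested. In these data no gene of the 9 differed between dorsal and ventral MEC by the threshold used, which 3.6% of all genes tested passed. The mean was higher in ventral MEC for 8 of the 9, against 48.8% of all genes tested. Of 20 tested genes for other proteins of the same trans-synaptic system, 3 passed as higher in ventral MEC, against 1.45% of all genes tested. These were *Mdga1*, *Nxph1* and *Flrt2*, and the calls of *Mdga1* and *Flrt2* were close to the threshold. The list of these proteins was chosen with earlier results of these data known, so the contrast with all genes is not a test. With the regions that the column headers name, a doubt described below, none of the 3 was called. The fitted difference was then above 0 for 3 of the 9 genes.

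As background, a neurexin in the axon terminal and a neuroligin or LRRTM in the postsynaptic membrane form a bridge that organises both sides of the synapse. Neuroligin 1 is found mainly at excitatory synapses, neuroligin 2 at inhibitory synapses and neuroligin 3 at both, whereas the LRRTMs act at excitatory synapses. Alternative promoters and splicing of the neurexin genes decide which partner binds, and the gene-level values used here do not resolve such isoforms.

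Tissue came from 13 male C57BL/6JolaHsd mice, 8 weeks old, with no treatment or transgene named in the labels. From each mouse, 1 sagittal slice of the right MEC, 400 µm thick, was divided by hand into a dorsal and a ventral piece, and pieces of the same region from 3 or 4 mice were pooled, which gave 4 dorsal and 4 ventral pools with RNA integrity numbers between 7.1 and 8.5. RNA-Seq of each pool gave FPKM values, that is, fragments scaled by exon length and by the number of fragments mapped in the library. Both regions came from the same 4 groups of mice, but which libraries share a group is not given, and the fit treats the 8 pools as unpaired. Each replicate is a pool, p-values measure the spread between pools, and in such bulk tissue fewer cells of a type cannot be told apart from less RNA per cell.

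A doubt about library identity comes before all results. The column headers of the FPKM table are D1 to D4 and V1 to V4, but the means over D1, V1, D2 and V2 equal the authors' dorsal means, and those over D3, V3, D4 and V4 equal their ventral means. This held within 0.1% for 13746 of 13943 genes, against 299 genes for the next best of the 70 possible assignments. These regions were used throughout, so that the header of 4 of the 8 libraries (V1, V2, D3 and D4) names the other region. No label of a single library bears out this assignment, which was made by comparing values. The dorsal and ventral FPKM in the study's own list matched the same means in 1080 of 1080 lines compared, and 6 lines matched the other way round. That match concerns the means of the regions, not single libraries. With the regions as the headers name them, 1 of the 13674 genes was called, against 492 (3.6%) with the regions used, and no neurexin, neuroligin or LRRTM gene was called either way. Results that change direction under the headers' regions are named beside their values below.

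Libraries were alike in depth as far as FPKM values show it: depth relative to the typical library, read from genes of very low FPKM, ranged from 0.918 to 1.11. Markers of other cells differed between the regions. All 6 oligodendrocyte markers tested were higher in dorsal MEC, with a summed FPKM of 790 to 1046 in dorsal and 434 to 572 in ventral libraries, and 2 of 3 leptomeningeal markers were higher in ventral MEC, with sums of 60.9 to 67.5 and 99.4 to 115. Among 6 markers of GABAergic neurons, *Sst* was higher in ventral MEC (log2(V/D) = 1.01) and *Pvalb* lower (log2(V/D) = -1.24). The others were not called, but the regions did not overlap for *Gad1* (log2(V/D) = -0.15) and *Gad2* (0.14). The summed FPKM of the 6 was higher in every ventral library (231 to 301 in dorsal, 308 to 398 in ventral), but through *Sst*. The mean sum was 260 in dorsal and 363 in ventral MEC, and the mean of *Sst* alone was 109 and 220. The means of *Pvalb* and *Gad1* were lower in ventral MEC, and those of *Gad2*, *Slc32a1* and *Vip* only slightly higher. Of 4 markers of glutamatergic neurons, *Slc17a6* was lower in ventral MEC (log2(V/D) = -0.58), and their summed FPKM overlapped between dorsal (528 to 676) and ventral (546 to 707) libraries. The choroid plexus markers *Ttr* and *Folr1* and the dentate gyrus marker *Dsp* were under an FPKM of 0.1 in most libraries. None of the markers of oligodendrocyte precursors, astrocytes, microglia and endothelial cells was called, but summed FPKM was higher in every ventral library for precursors (14.8 to 16.0 in dorsal, 17.3 to 17.7 in ventral), astrocytes (127 to 133, and 144 to 154) and microglia (32.9 to 34.9, and 36.5 to 40.1). The part of these differences in the values below was not tested.

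The genes of a family are related in sequence, so reads could in principle be shared between them. In the GENCODE M21 transcripts, no stretch of 50 bases occurred in any pair of the 9 genes. The longest identical run of coding bases was 23 for *Nrxn2* and *Nrxn3*, 23 for *Nlgn1* and *Nlgn3*, 23 for *Nlgn2* and *Nlgn3*, 17 for *Nlgn1* and *Nlgn2*, and between 11 and 19 among the LRRTM genes. The closest stretches are shown here because they show how far family members can be told apart by a read. Each line gives the transcript strand, 5′ to 3′, with the shared run in capitals and 12 bases of the same transcript on either side.
Nrxn2 (with Nrxn3): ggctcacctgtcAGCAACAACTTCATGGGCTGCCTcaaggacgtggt
Nrxn3 (with Nrxn2): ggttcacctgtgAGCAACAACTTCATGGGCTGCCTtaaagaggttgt
Nlgn1 (with Nlgn3): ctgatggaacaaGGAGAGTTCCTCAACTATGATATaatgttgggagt
Nlgn3 (with Nlgn1): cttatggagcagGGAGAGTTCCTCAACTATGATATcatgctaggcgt
Nlgn2 (with Nlgn3): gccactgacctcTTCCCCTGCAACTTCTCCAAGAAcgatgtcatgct
Nlgn3 (with Nlgn2): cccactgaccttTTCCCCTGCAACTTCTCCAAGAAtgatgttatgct
Lrrtm3 (with Lrrtm4): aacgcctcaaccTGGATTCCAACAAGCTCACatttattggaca
Lrrtm4 (with Lrrtm3): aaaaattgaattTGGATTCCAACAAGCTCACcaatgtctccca

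All of these stretches are coding. On GRCm38, the neurexin stretch joins exons 7 and 8 of a *Nrxn2* transcript (chr19:6472378-6473322, plus strand) and exons 5 and 6 of a *Nrxn3* transcript (chr12:89193166-89254678, plus strand), across the intron between them. The neuroligin stretches lie in exon 7 of 8 of each gene, at chr3:25436342-25436388 (minus strand) for *Nlgn1*, at chr11:69826789-69826835 (minus strand) for *Nlgn2*, and at chrX:101318183-101318229 and chrX:101318627-101318673 (plus strand) for *Nlgn3*. The LRRTM stretches lie in exon 2 of 3, at chr10:64088503-64088545 (minus strand) for *Lrrtm3* and at chr6:80022448-80022490 (plus strand) for *Lrrtm4*. Outside the capitals the flanks of each pair already differ, and a paired-end read longer than the run would cover such a difference.

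Reads could also be shared with genes that overlap a family member. Of the exon bases of *Nlgn3*, 41.2% are also exon bases of *Gm21986* on the same strand, a gene listed at FPKM 0.149 to 0.791. Of those of *Lrrtm4*, 25.1% overlap *Gm4409* on the opposite strand, listed at FPKM 0.459 to 1.94. The overlap was 9.16% for *Nlgn1*, 6.44% for *Nrxn2*, 3.48% for *Nrxn3* and 1.58% for *Lrrtm2*, and 0 for *Nlgn2*, *Lrrtm1* and *Lrrtm3*. Whether the counting used strand is not given in the sources used here, which leaves the overlap of *Lrrtm4* unresolved. Strand could not separate *Nlgn3* from *Gm21986* in any case. The values of *Nlgn3* and *Lrrtm4* thus carry the uncertainty from overlap most.

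The 9 genes were well expressed in MEC. Their mean FPKM over the 8 libraries lay between the 78.8th and the 94.7th percentile of all genes tested, for which the median was 7.98. *Nrxn3* had the highest level, with an FPKM of 70.8 ± 8.21 (SD, n = 8), followed by *Lrrtm4* (48.7 ± 8.14), *Nlgn3* (37.5 ± 3.30), *Lrrtm2* (33.2 ± 7.24), *Nlgn1* (31.2 ± 2.16), *Lrrtm1* (29.1 ± 2.30), *Nlgn2* (24.4 ± 1.97), *Lrrtm3* (23.5 ± 3.13) and *Nrxn2* (23.1 ± 3.74). The levels thus spanned 3.07-fold. *Nrxn3* was above *Lrrtm4* and *Lrrtm1* above *Nlgn2* in all 8 libraries, and *Lrrtm4* was above *Nlgn3* in 7. The order of the other neighbours (*Nlgn3* and *Lrrtm2*, *Lrrtm2* and *Nlgn1*, *Nlgn1* and *Lrrtm1*, *Nlgn2* and *Lrrtm3*, *Lrrtm3* and *Nrxn2*) held in only 5 or 6 of the 8 libraries, and these neighbours did not differ beyond their spread. *Nlgn3* was above *Nlgn1* in all 8 libraries, and its lowest library (34.3) was above the highest of *Lrrtm1* (34.1).

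**Figure D1:**
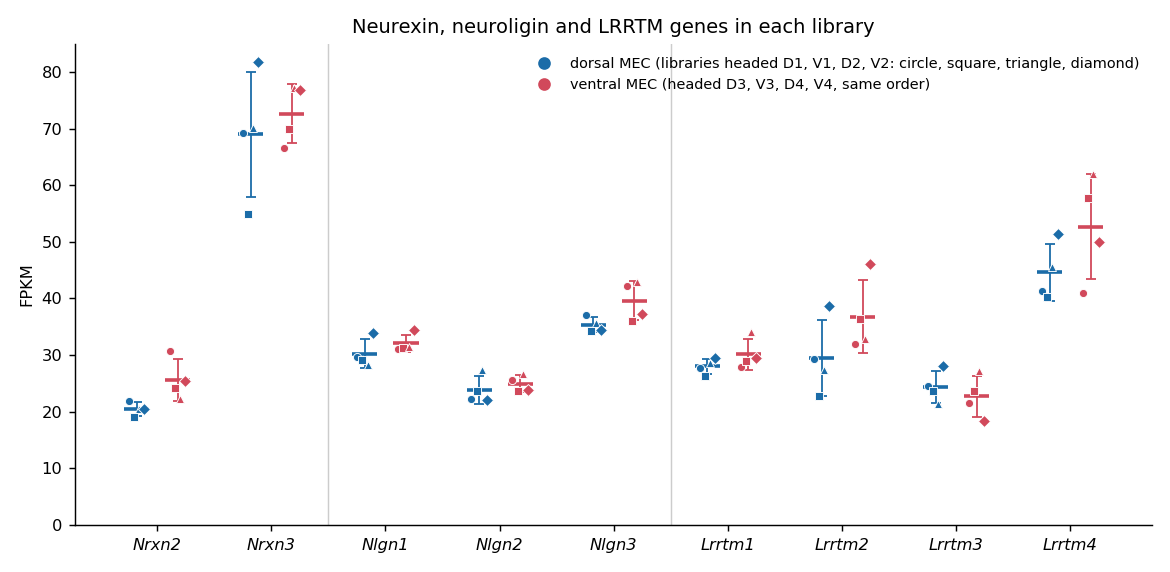
FPKM (vertical axis) of the 2 neurexin, 3 neuroligin and 4 LRRTM genes in each dorsal (blue) and ventral (red) library, with a bar at the mean and whiskers of 1 SD (n = 4 per region). Only *Nrxn2* has all 4 ventral libraries (22.2 to 30.8) above all 4 dorsal ones (19.0 to 21.9), and *Lrrtm2* and *Lrrtm4* spread most widely within a region for their level.

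The first question was whether dorsal and ventral MEC differ in the presynaptic side of the bridge. *Nrxn2*, on chromosome 19 (chr19:6418731-6544169, plus strand), had an FPKM of 21.9, 19.0, 20.5 and 20.5 in the dorsal libraries D1, V1, D2 and V2, and of 30.8, 24.2, 22.2 and 25.3 in the ventral libraries D3, V3, D4 and V4. Every ventral library was above every dorsal one, with the widest gap in D3. Mean FPKM was 20.5 ± 1.20 in dorsal and 25.6 ± 3.67 in ventral MEC (SD, n = 4 each), a log2(V/D) of 0.32. The limma model on log2(FPKM + 1) gave a difference of 0.30 (SE 0.09), a ventral to dorsal fold between 1.06 and 1.43 (95% interval), with an unadjusted p of 0.00967 and a Benjamini-Hochberg adjusted p of 0.131 over all genes tested. *Nrxn2* was therefore not called, and the difference was -0.09 with the regions the headers name.

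Such separation is not rare in these libraries. Dorsal and ventral libraries did not overlap for 11.1% of all genes tested, and 16% had an unadjusted p under 0.05, against 1 of the 9 genes (*Nrxn2*) by either measure. The 3 genes whose profile over the 8 libraries was nearest to that of *Nrxn2* were *Prss12*, *BC005764* and *Tmem194*. Their root mean square difference from it was 0.05, 0.06 and 0.07 on the log2(FPKM + 1) scale, where *Nrxn2* itself varied by 0.20 about its mean, and none of the 3 was called.

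*Nrxn3*, a gene that spans over a megabase of chromosome 12 (chr12:88722876-90334935, plus strand), had an FPKM of 69.2, 54.9, 70.2 and 81.8 in the dorsal libraries and of 66.6, 69.9, 77.2 and 76.8 in the ventral libraries, in the same order. All 4 ventral libraries lay within the range of the dorsal ones, whose lowest (V1) and highest (V2) values bounded the whole set. Means were 69.0 ± 11.01 and 72.6 ± 5.23, log2(V/D) was 0.07, and the model difference was 0.08 (SE 0.11; limma, adjusted p = 0.783). The fold lay between 0.895 and 1.26. The sign rested on 1 library: without V1 the difference was -0.02, and with the headers' regions it was -0.01.

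The next question was whether the postsynaptic neuroligins, which differ in the type of synapse they serve, are expressed differently along the dorsoventral axis. *Nlgn1*, the neuroligin of excitatory synapses (chr3:25426215-26332460, minus strand), had an FPKM of 29.7, 29.2, 28.3 and 34.0 in dorsal and of 31.1, 31.3, 31.5 and 34.4 in ventral libraries. The highest value of each region, V2 in dorsal and V4 in ventral MEC, stood apart from the other 3, and the regions overlapped through V2. Means were 30.3 ± 2.51 and 32.1 ± 1.55, and the model difference was 0.08 (SE 0.07; limma, adjusted p = 0.648).

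*Nlgn2*, the neuroligin of inhibitory synapses (chr11:69823122-69837784, minus strand), had an FPKM of 22.2, 23.7, 27.4 and 22.1 in dorsal and of 25.6, 23.7, 26.7 and 23.9 in ventral libraries. The highest value of all was dorsal (D2), and the regions overlapped over the whole ventral range. Means were 23.9 ± 2.48 and 25.0 ± 1.43, and the model difference was 0.07 (SE 0.08; limma, adjusted p = 0.758). This difference was -0.12 with the headers' regions and -0.05 in the 4 libraries whose header names the region used.

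*Nlgn3*, which is X-linked and serves both kinds of synapse (chrX:101299168-101325963, plus strand), had an FPKM of 37.1, 34.3, 35.6 and 34.5 in dorsal and of 42.2, 36.1, 42.9 and 37.3 in ventral libraries. The ventral libraries D3 and D4 were clearly above the rest, V4 was just above the highest dorsal library, and V3 was below it. Means were 35.4 ± 1.29 and 39.6 ± 3.42, a log2(V/D) of 0.16. The model difference was 0.16 (SE 0.07), with an unadjusted p of 0.0510 and an adjusted p of 0.315 (limma). It was -0.14 with the headers' regions, and because D3 and D4 are both among the libraries whose header names the other region, the direction of *Nlgn3* depends on that assignment.

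For these 3 genes the 95% intervals of the ventral to dorsal fold were narrow. They ran from 0.950 to 1.18 for *Nlgn1*, from 0.926 to 1.18 for *Nlgn2* and from 0.999 to 1.24 for *Nlgn3*. A difference of 1.2-fold in either direction thus lay outside the interval for *Nlgn1* and *Nlgn2*, and inside it for *Nlgn3*. Of all 9 genes, *Nlgn3* also had the lowest coefficient of variation averaged over both regions, at the 14.8th percentile of all genes tested. That low average came from dorsal MEC (3.64%). In ventral MEC its value was 8.64%, above those of *Nlgn1* (4.82%), *Nlgn2* (5.74%) and *Nrxn3* (7.19%).

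Among the LRRTMs, which bind neurexins at excitatory synapses, *Lrrtm1* (chr6:77242689-77257791, plus strand) had an FPKM of 27.7, 26.3, 28.6 and 29.4 in dorsal and of 27.9, 29.0, 34.1 and 29.4 in ventral libraries. The ventral library D4 stood above the rest, and the other 3 ventral libraries were within the dorsal range. Means were 28.0 ± 1.34 and 30.1 ± 2.74, and the model difference was 0.10 (SE 0.07; fold 0.957 to 1.20; limma, adjusted p = 0.581). It was -0.05 with the headers' regions.

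*Lrrtm2* (chr18:35209003-35215024, minus strand) had an FPKM of 29.3, 22.7, 27.4 and 38.7 in dorsal and of 31.9, 36.3, 32.9 and 46.1 in ventral libraries. Of the dorsal libraries, 3 lay below every ventral one, but V2 lay above all ventral libraries except V4. Means were 29.5 ± 6.72 and 36.8 ± 6.49, a log2(V/D) of 0.32, about that of *Nrxn2*. The model difference was 0.32 (SE 0.16; limma, unadjusted p = 0.0703, adjusted p = 0.363). *Lrrtm2* was the most variable of the 9 genes: its highest library was 2.03-fold its lowest, its coefficient of variation was 22.7% in dorsal and 17.6% in ventral MEC, and the interval of the fold, 0.978 to 1.59, was the widest.

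*Lrrtm3* (chr10:63928472-64090277, minus strand) was the 1 gene of the 9 with the lower mean in ventral MEC. Its FPKM was 24.6, 23.7, 21.3 and 28.0 in dorsal and 21.6, 23.7, 27.1 and 18.4 in ventral libraries. The regions overlapped almost entirely, with V4 alone below the dorsal range. Means were 24.4 ± 2.78 and 22.7 ± 3.64, and the model difference was -0.11 (SE 0.12; fold 0.777 to 1.11; limma, adjusted p = 0.736). Its size rested on V4, without which it was -0.014.

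*Lrrtm4* (chr6:80018877-80810143, plus strand), which also binds heparan sulfate proteoglycans, had an FPKM of 41.4, 40.2, 45.5 and 51.4 in dorsal and of 41.0, 57.8, 62.0 and 49.98 in ventral libraries. The ventral libraries V3 and D4 were above all dorsal ones, whereas D3 was near the lowest. Means were 44.6 ± 5.05 and 52.7 ± 9.25, a log2(V/D) of 0.24, and the model difference was 0.22 (SE 0.13; fold 0.962 to 1.42; limma, adjusted p = 0.438).

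**Figure D2:**
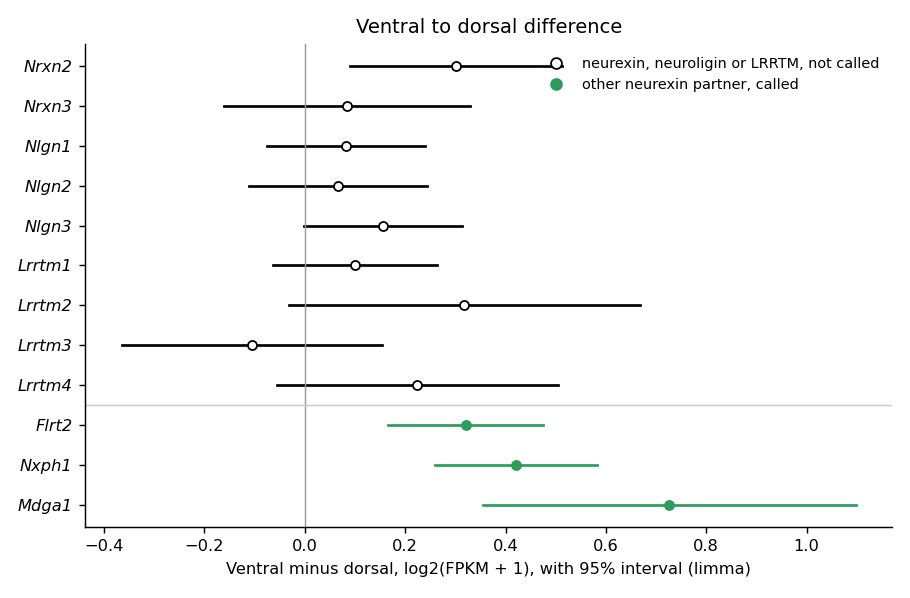
Ventral minus dorsal difference on the log2(FPKM + 1) scale (horizontal axis) with its 95% limma interval. Open circles are the 9 genes. Filled circles, labelled other neurexin partner, are the 3 called genes from the list of proteins that bind neurexins or neuroligins or work beside them. The intervals of 8 of the 9 genes include 0, that of *Nrxn2* runs from 0.09 to 0.51 without passing the adjusted test, and those of *Flrt2*, *Nxph1* and *Mdga1* lie above 0.

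Over the 9 genes, then, 0 were called by limma, where a call needed an adjusted p under 0.05 and mean FPKM values more than 20% apart. The background was 3.6% of all genes tested, 1.45% higher in ventral and 2.15% higher in dorsal MEC. Ratios of mean FPKM beyond 20% were seen for *Nrxn2* and *Lrrtm2*. The mean was higher in ventral MEC for 8 of the 9, against 48.8% of all genes tested, and the median log2(V/D) was 0.11, against -0.01 over all genes tested. With the regions the headers name, the fitted difference was above 0 for 3 of the 9, since those of *Nrxn2*, *Nrxn3*, *Nlgn2*, *Nlgn3* and *Lrrtm1* turned. The 9 genes were measured in the same 8 libraries, and these counts carry no test. The precision was such that the intervals of 8 genes, all but *Lrrtm2*, leave out a change of 1.5-fold or more in either direction, and those of all 9 leave out 2-fold.

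Some libraries held low or high values of several of the 9 genes, a pattern that was counted but not tested. The dorsal library V1 held the lowest value of 6 of the 9 genes, and 1 of the 9 was above its own mean there. The ventral library D4 held the highest value of 3 and was above the mean for 8. The dorsal library V2 departed from the other dorsal libraries, with 6 genes above their mean against 1 in each of D1, V1 and D2, and the ventral library D3 had 3 against 6 or 8 in the other ventral libraries. Both V2 and D3 are libraries whose header names the other region, as are V1 and D4.

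**Figure D3:**
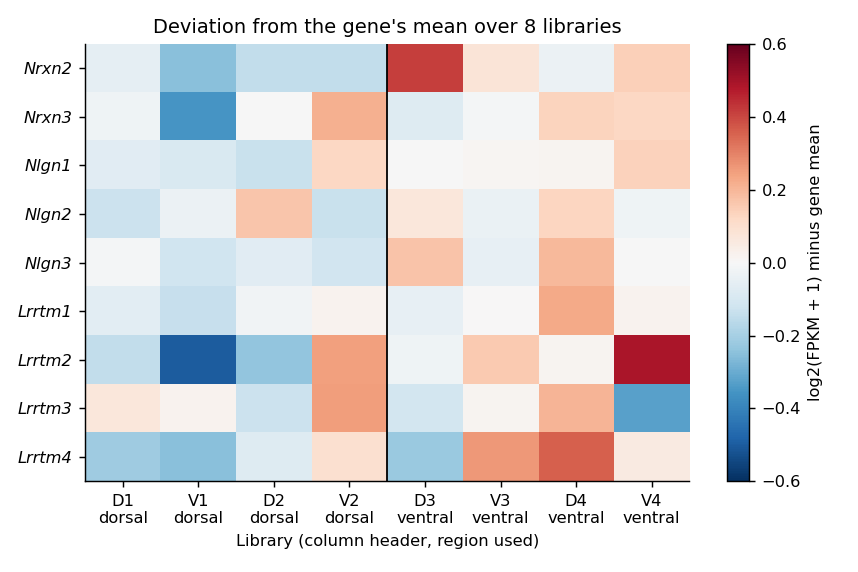
Deviation of each library from the gene's mean over the 8 libraries, on the log2(FPKM + 1) scale (colour), for the 9 genes (rows) and the 4 dorsal and 4 ventral libraries (columns, with the header and the region used). Column V1 is lowest for 6 genes, and column D4 is above the mean for 8.

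The sum over a family asks how much transcript of each kind there was, whichever gene it came from. Summed FPKM of the 3 neuroligins was 88.9, 87.2, 91.3 and 90.6 in dorsal and 98.9, 91.1, 101 and 95.6 in ventral libraries. The values overlapped by a single library on each side, V3 in ventral and D2 in dorsal MEC, and the means were 89.5 ± 1.84 and 96.6 ± 4.34 (SD, n = 4). The 2 neurexins summed to 89.5 ± 11.7 in dorsal and 98.3 ± 3.39 in ventral MEC, and the 4 LRRTMs to 127 ± 14.8 and 142 ± 14.2, with regions that overlapped for both. Within the neuroligins, *Nlgn3* made up 39.5% of the sum in dorsal and 40.9% in ventral MEC, *Nlgn1* 33.8% and 33.2%, and *Nlgn2* 26.6% and 25.8%. *Nrxn3* made up 76.9% and 73.9% of the neurexin sum, and *Lrrtm4* 35.3% and 36.8% of the LRRTM sum.

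Because scaling between libraries cannot change a ratio within a library, 5 such ratios were compared between regions with exact permutation tests, for which the smallest p with 4 against 4 libraries is 0.0286. The ratio of *Nlgn2*, of inhibitory synapses, to *Nlgn1*, of excitatory synapses, was 0.748, 0.812, 0.968 and 0.652 in dorsal and 0.823, 0.756, 0.848 and 0.695 in ventral libraries. Its geometric mean was 0.787 in dorsal and 0.778 in ventral MEC, a difference of -0.02 on the log2 scale (two-sided exact p = 0.943), and all ventral values lay inside the dorsal range. *Nlgn3* to *Nlgn1* was 1.17 in dorsal and 1.23 in ventral MEC (exact p = 0.543).

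For the neurexins, *Nrxn3* to *Nrxn2* was 3.34 in dorsal and 2.85 in ventral MEC (exact p = 0.286), with 3.15, 2.89, 3.42 and 3.99 in dorsal and 2.16, 2.89, 3.47 and 3.03 in ventral libraries. All ventral values but the low one of D3 lay within the dorsal range. *Lrrtm2* to *Lrrtm1* was 1.04 and 1.21 (exact p = 0.286). The ratio nearest to a difference was *Lrrtm3* to *Lrrtm4*, at 0.594, 0.589, 0.468 and 0.545 in dorsal and 0.527, 0.410, 0.437 and 0.369 in ventral libraries. Its geometric mean was 0.547 in dorsal and 0.432 in ventral MEC, a difference of -0.34 on the log2 scale with an exact p of 0.0571, and the regions overlapped through D2 and D3. After Benjamini-Hochberg adjustment over the 5 ratios the exact tests gave p between 0.286 and 0.943, and no ratio passed. A single ratio among 5 could not have gone below an adjusted exact p of 0.143, so these tests do not show that the ratios were alike. The directions of *Nlgn3* to *Nlgn1* and of *Nrxn3* to *Nrxn2* turned with the headers' regions.

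**Figure D4:**
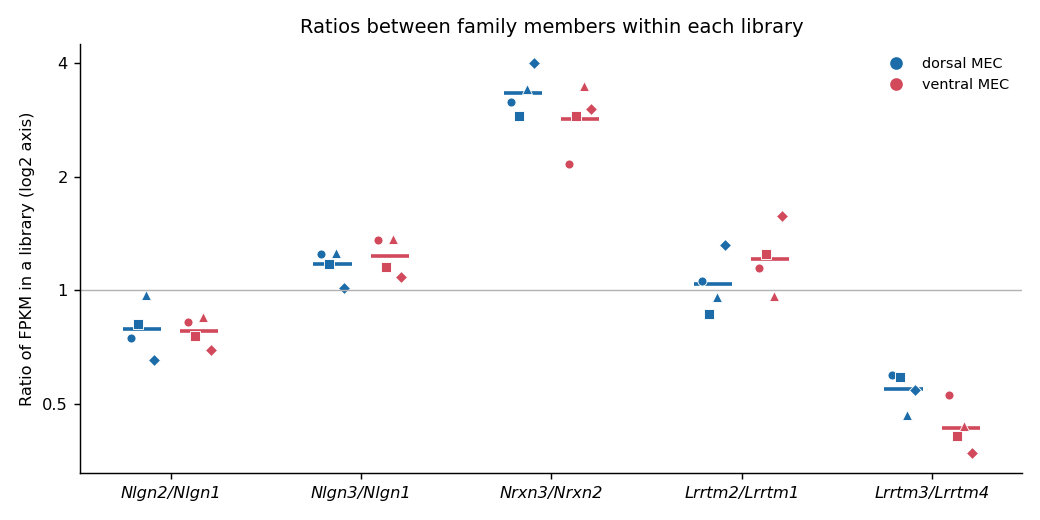
Ratio of FPKM between 2 family members in each library (vertical axis, log2 scale), in dorsal (blue) and ventral (red) MEC, with a bar at the geometric mean of 4 libraries. Dorsal and ventral values overlap for all 5 ratios, and *Lrrtm3/Lrrtm4* is the one with the lower geometric mean in ventral MEC by the widest margin (0.547 in dorsal, 0.432 in ventral).

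*Lrrtm1*, *Lrrtm2* and *Lrrtm3* each lie within an alpha-catenin gene, on the opposite strand: *Lrrtm1* in *Ctnna2*, *Lrrtm2* in *Ctnna1* and *Lrrtm3* in *Ctnna3*. Alpha-catenins link cadherins to the actin cytoskeleton. No host gene was called. *Ctnna2* had a mean FPKM of 20.6 ± 2.37 in dorsal and 19.5 ± 1.67 in ventral MEC (log2(V/D) = -0.08; limma, adjusted p = 0.773). *Ctnna1* had 9.63 ± 0.674 and 10.5 ± 0.298 (log2(V/D) = 0.12; adjusted p = 0.465). *Ctnna3* was low, with 1.86 ± 0.659 and 1.25 ± 0.851 (log2(V/D) = -0.57; adjusted p = 0.519). The means of *Lrrtm1* and of its host *Ctnna2* lay in opposite directions. Those of *Lrrtm2* and *Ctnna1* were both higher in ventral MEC, and those of *Lrrtm3* and *Ctnna3* both lower. None of these differences passed the test, and that of *Lrrtm1* turned with the headers' regions.

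Other proteins bind neurexins or neuroligins or work beside them, and a list of 23 was compared in the same fit: cerebellins and their delta glutamate receptors, calsyntenins, latrophilins (*Lphn1* to *Lphn3*), FLRTs, neurexophilins, C1q-like proteins, dystroglycan and the MDGAs. Of these, 20 were tested. In all, 3 were called higher in ventral MEC and 0 higher in dorsal MEC, 8 had an unadjusted p under 0.05 (6 with the higher mean in ventral and 2 in dorsal MEC), the regions did not overlap for 6, and the median log2(V/D) was 0.09. Over all genes tested, 1.45% were called higher in ventral MEC, 16% had an unadjusted p under 0.05, the regions did not overlap for 11.1%, and the median was -0.01. The list was chosen with earlier results of these data known, so setting its counts beside these shares is not a test. *Nxph2*, *Nxph4* and *C1ql2* were not tested because they were too low.

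*Nxph1* encodes neurexophilin 1, a secreted glycoprotein that binds neurexins (chr6:8948431-9249032, plus strand). Its FPKM was 22.5, 21.8, 21.7 and 24.6 in dorsal and 27.3, 32.1, 32.4 and 31.0 in ventral libraries, so that every ventral library was above every dorsal one. Means were 22.6 ± 1.33 and 30.7 ± 2.36, a log2(V/D) of 0.44, and the model difference was 0.42 (SE 0.07; limma, adjusted p = 0.0115). Each of the 8 fits with 1 library removed called it.

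*Mdga1* encodes a membrane-anchored protein that binds neuroligins and blocks their binding to neurexins (chr17:29827949-29970087, minus strand). Its FPKM was 6.82, 4.04, 4.58 and 5.93 in dorsal and 12.2, 7.61, 10.1 and 8.02 in ventral libraries, again without overlap and with D3 highest. Means were 5.34 ± 1.27 and 9.49 ± 2.12, a log2(V/D) of 0.83, the largest of the list. The model difference was 0.73 (SE 0.17; limma, adjusted p = 0.0429). The call was close to the threshold: with 1 library removed it was kept in 2 of 8 fits (without D1 or V3), with adjusted p from 0.0321 to 0.120, and the difference was -0.31 with the headers' regions.

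*Flrt2* encodes a leucine-rich repeat protein that binds latrophilins and Unc5 receptors (chr12:95692226-95785215, plus strand). Its FPKM was 20.5, 18.7, 19.6 and 22.1 in dorsal and 24.2, 27.4, 25.5 and 24.9 in ventral libraries, also without overlap. Means were 20.2 ± 1.47 and 25.5 ± 1.40, a log2(V/D) of 0.33, and the model difference was 0.32 (SE 0.07; limma, adjusted p = 0.0326). With 1 library removed it was called in 1 of 8 fits, the one without V2, with adjusted p from 0.0323 to 0.109. The lowest ratio of the list was that of the latrophilin *Lphn2*, with means of 15.6 ± 1.998 and 11.6 ± 1.66 (log2(V/D) = -0.43; limma, adjusted p = 0.0850), which was not called.

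With the headers' regions, limma called none of the 3 partners, and the differences were 0.07 for *Nxph1*, 0.04 for *Flrt2* and -0.31 for *Mdga1*. In the 4 libraries whose header names the region used, 2 against 2, limma called no gene of all those tested (1240 had an unadjusted p under 0.05), and the differences were 0.49 for *Nxph1*, 0.37 for *Flrt2* and 0.42 for *Mdga1*. The 6 oligodendrocyte markers and the ventrally higher *Sst* and leptomeningeal markers named above moved between the same libraries as these 3 genes. So did the summed markers of precursors, astrocytes and microglia. The summed GABAergic markers did too, but through *Sst*, which is already named. The part of all these markers in the calls was not tested.

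**Figure D5:**
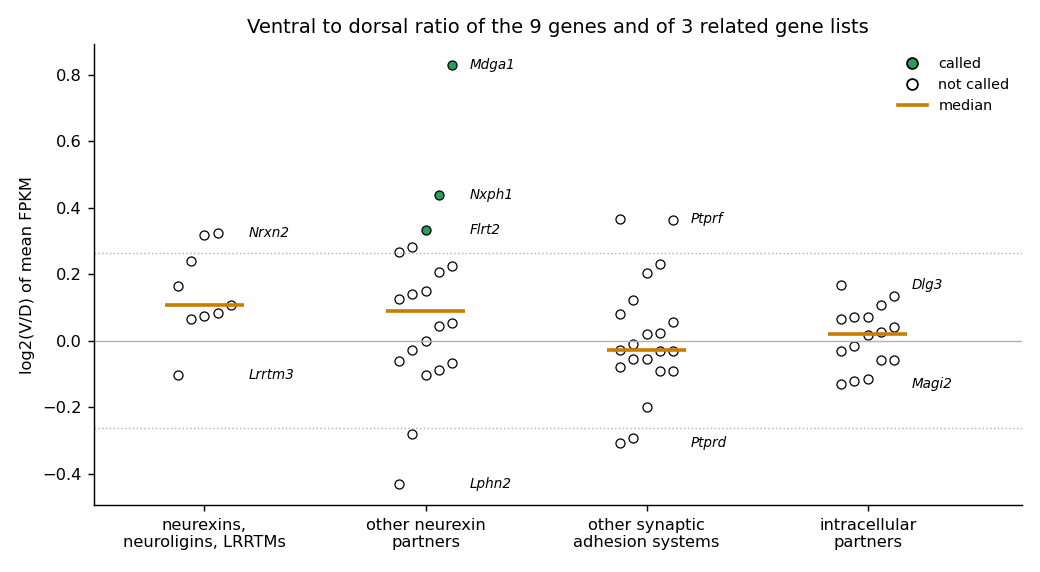
log2(V/D) of mean FPKM (vertical axis) for the 9 genes and the tested genes of the 3 related lists, 1 circle per gene, filled where called, with a bar at the median and dotted lines at the 20% ratio. Medians are 0.11, 0.09, -0.03 and 0.02 from left to right. The 3 called genes, *Mdga1*, *Nxph1* and *Flrt2*, are all in the list labelled other neurexin partners. That list also holds genes for proteins that bind neuroligins or work beside them.

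Synapses are also organised by adhesion proteins that do not use neurexins. A list of 22, made of the LAR-type receptor phosphatases, the netrin-Gs and their postsynaptic leucine-rich repeat and immunoglobulin partners, held 21 tested genes, of which limma called 0. Of the 21, 5 had an unadjusted p under 0.05 (2 with the higher mean in ventral and 3 in dorsal MEC), the regions did not overlap for 3, and the median log2(V/D) was -0.03. Over all genes tested, 3.6% were called, 16% had an unadjusted p under 0.05, and the regions did not overlap for 11.1%. *Slitrk6* was too low to be tested. The highest ratio was that of the phosphatase *Ptprf*, with means of 5.59 ± 0.412 and 7.19 ± 1.05 (log2(V/D) = 0.37; limma, adjusted p = 0.133). The lowest was that of *Ptprd*, a related phosphatase, with means of 200 ± 17.6 and 162 ± 21.6 (log2(V/D) = -0.31; limma, adjusted p = 0.142). Without the ventral library V3, *Ptprd* was called, with an adjusted p of 0.0321 (0.0321 to 0.955 over all alternatives). Both phosphatases changed direction with the headers' regions.

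The cytoplasmic tails of neurexins, neuroligins and LRRTMs bind scaffold proteins, and neurexin transcripts are spliced by factors of the STAR family. A list of 16 such genes was tested in full, limma called 0, 1 had an unadjusted p under 0.05, and the regions overlapped for all 16. The shares over all genes tested were 3.6% called, 16% with an unadjusted p under 0.05 and 11.1% without overlap. The median log2(V/D) was 0.02. Ratios ran from -0.13 for the scaffold *Magi2* (30.2 ± 1.26 in dorsal and 27.6 ± 2.08 in ventral MEC; limma, adjusted p = 0.409) to 0.17 for *Dlg3*, which encodes a scaffold of excitatory synapses (40.4 ± 3.41 and 45.4 ± 1.33; limma, adjusted p = 0.270).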

How the data were processed

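RNA was reverse transcribed and amplified from 120 ng per pool (Ovation RNA-Seq V2) and sequenced paired-end on a HiSeq. The authors aligned reads with TopHat2 2.0.8 (CASAVA 1.8 is also named in the submitters' processing notes) to GRCm38 with Ensembl release 73 and obtained FPKM values with Cuffdiff 2. The deposited FPKM values, scaled between libraries by Cuffdiff, were used as they stood. The table of fragment numbers, with 4 columns of per-sample values, was left out, since no label ties its conditions and replicate numbers to single samples, and total depth is not given here. Columns of the authors' own comparison (fold change, p, q) were not used.

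Genes with enough alignments by the authors' status column and a mean FPKM of at least 1 were compared by limma 3.58.1 (R 4.3.3) on log2(FPKM + 1) with a variance trend, two-sided, unpaired, with Benjamini-Hochberg adjustment. Calls needed an adjusted p under 0.05 together with a log2(V/D) beyond 0.263 on either side. This replaces Cuffdiff, which needs alignments, and a fold change on this scale understates the change of low genes. Intervals are 95% limma intervals. Regions follow the authors' mean columns. The members and lists were chosen with earlier results of these data known. Named genes are the 9 members, called genes of the lists, the highest and lowest ratio per list, the alpha-catenin hosts and the 3 profiles nearest to *Nrxn2*. Symbols carried by several identifiers were resolved through GENCODE M21, which also gave positions, exons and sequences (GRCm38). The fit was tested on simulated data. Ratios were tested in Python 3.11.15 (SciPy 1.17.1).

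Alternatives were the constant before the logarithm, the FPKM filter, 2 scalings, library weights, the variance model, the call rule, each library left out, the regions the headers name, and only the 4 libraries whose header names the region used.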

Additional observations from a re-analysis of the deposited data

Results flagged for a closer look

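*Nlgn1* in the ventral library V4, at an FPKM of 34.4, stood apart from the other 3 ventral libraries, which lay between 31.1 and 31.5. Its gap to the nearest of them was 0.883 of the whole ventral range, past Dixon's 95% critical value for 4 values. Chance gives such a gap in about 1 in 20 groups, and 44 groups were tested.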

How the results depend on the processing

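No neurexin, neuroligin or LRRTM gene was called under any of the 18 alternatives, and the smallest adjusted p among them was 0.0713, for *Nrxn2* (range 0.0713 to 0.965). The directions of *Nlgn1*, *Lrrtm2*, *Lrrtm3* and *Lrrtm4* were kept in all 18. With the regions the headers name, the differences were -0.088 for *Nrxn2*, -0.012 for *Nrxn3*, -0.12 for *Nlgn2*, -0.14 for *Nlgn3* and -0.047 for *Lrrtm1*. They were -0.31 for *Mdga1*, -0.12 for *Ptprf* and 0.13 for *Ptprd*. The within-library ratios were then -0.24 for *Nlgn3/Nlgn1* and 0.080 for *Nrxn3/Nrxn2* (log2). In those regions 1 gene of all and 0 of the list of other partners of neurexins or neuroligins were called. In the 4 libraries whose header names the region used, *Nlgn2* was at -0.050, and 0 genes of all and 0 partners were called, with 1240 genes at an unadjusted p under 0.05. The cause was not tested. Leaving out each library in turn gave 248 (without V1) to 532 (without V3) called genes against 492, with 254 without D3 and 327 without D2 or V2, 1 to 2 partners against 3, 0 to 1 genes of the other adhesion systems against 0, a *Nrxn3* difference of -0.020 (without V1) to 0.17, and a *Nlgn2/Nlgn1* difference of -0.11 to 0.084 (without D2) against -0.02, with 0.039 without V4. Without a variance trend, 1 partner was called. Rescaling to one total FPKM called 201 genes as higher in ventral and 195 as higher in dorsal MEC, against 198 and 294. No paired analysis was possible because no label ties a dorsal and a ventral library to the same group of mice, although both regions came from the same 4 groups, and the numbers in the column headers put D1 and V1, for example, in 1 region. The number of pools, 4 per region, and the unknown total depth limit the precision.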
